A study of Mus musculus with 16 samples.

Results

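The circadian clock output genes examined here were 10 of the 49315 genes in the count table: *Hlf*, *Dbp*, *Tef*, *Nr1d1*, *Nr1d2*, *Per1*, *Per2*, *Per3*, *Ciart* and *Bhlhe41*. The set was chosen by 1 measured value, the level of *Hlf*, which differed between naive male and naive female cultures, and the other 9 genes were listed to ask whether the rest of the clock's output shared that difference. The sex difference of *Hlf* in naive cultures is therefore given as a description without a test. All 10 genes passed the filter on low counts, so no member was lost.

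Each library was bulk RNA from murine tracheal epithelial cell cultures (MTECs), which are primary airway cells kept at an air-liquid interface so that they differentiate. Cultures came from male or female mice, wild-type (WT) or labelled KO for LMAN1, a lectin that carries glycoproteins from the endoplasmic reticulum toward the Golgi. The mice were on a C57BL/6J background, and the WT animals were littermates of the KO animals. Cultures were left naive or received house dust mite extract (HDM) at 20 µg/ml overnight, with 2 cultures in each of the 8 groups and 16 libraries in all. Tracheas were pooled, 3 for 2 conditions, so cultures are not single animals, and the inserts were coated with basement membrane made by 3T3 fibroblasts. The age of the mice and the hour at which RNA was taken are not given in the sources used here. P-values rest on the spread between the 2 cultures of a group, estimated over all 8 groups together and with information shared among genes.

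In the molecular clock, a heterodimer of CLOCK (or NPAS2) with BMAL1, the product of *Arntl*, binds E-box sequences and switches on *Per*, *Cry*, *Nr1d1*, *Dbp* and other genes. The PER and CRY proteins then repress that heterodimer, and REV-ERB and ROR receptors compete at elements that control *Arntl*. DBP, TEF and HLF are the PAR bZIP factors, which bind D-box sequences and pass the rhythm on to metabolic genes. In the airway, club cells are known to hold a strong clock that responds to glucocorticoids.

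Sequence from RefSeq (GRCm38.p6) was at hand for 9 of the 10 members, from 250 bases before to 50 bases after each annotated start, in 11 windows because *Per1* and *Tef* each have 2 starts. The letters searched, on both strands, were the E-box CACGTG, the D-box TTATGTAA, the cyclic AMP response element TGACGTCA with its core TGACG, and the REV-ERB and ROR element AGGTCA. The E-box was found in windows of 4 members (*Ciart*, *Per1*, *Tef* and *Bhlhe41*), with 7 matches in 5 windows, and stood in 7.15% of all 32851 windows. The D-box stood in 0.938% of windows and was found in *Per3*, with 2 matches. The cyclic AMP response element stood in 1.79% of windows and was found in *Hlf*, ending next to the start. The core of that element, TGACG, stood in 20.8% of windows and was found in *Hlf*, within the full element, and in *Per1*. AGGTCA stood in 16.3% of windows and was found in *Per1* and *Nr1d2*. The stretches below hold these matches in the gene chosen for its sex difference (*Hlf*), in the members with more than 1 E-box or D-box match in a single window (*Ciart* and *Per3*) and in the member that went the opposite way under HDM (*Bhlhe41*). They are written 5′ to 3′ on the minus strand, on which all 4 genes lie, with the matched letters in capitals, and all of them end before the RefSeq start. A match is only a match of letters, not evidence of binding.
Hlf, chr11:90390918-90391017: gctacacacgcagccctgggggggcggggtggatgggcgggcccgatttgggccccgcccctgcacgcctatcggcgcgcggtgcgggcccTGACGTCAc
Ciart, chr3:95882259-95882358: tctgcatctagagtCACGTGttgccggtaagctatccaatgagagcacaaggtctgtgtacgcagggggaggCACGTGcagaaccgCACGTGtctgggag
Per3, chr4:151044796-151044895: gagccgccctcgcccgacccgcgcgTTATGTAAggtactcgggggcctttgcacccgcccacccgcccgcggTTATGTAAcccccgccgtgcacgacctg
Bhlhe41, chr6:145865560-145865620: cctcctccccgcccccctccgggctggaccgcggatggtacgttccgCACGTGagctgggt

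Some properties of the libraries bear on every result. Totals ran from 21860698 to 43442188 counts, and the lowest count of any member in any library was 75, for *Ciart*. Sex labels held, since *Xist* lay between 94.2 and 242 CPM (counts scaled by library size) in the 8 female libraries and between 0.977 and 3.6 CPM in the 8 male libraries. *Lman1* went against some KO labels: 3 of the 8 libraries labelled KO (both female naive and male naive replicate 1) held 10.6% to 11.8% of the WT mean of 121 CPM, but the other 5 held 52.6% to 64.8%. Those 5 were male KO naive replicate 2 and all 4 KO HDM libraries, so the level of *Lman1* transcript and HDM treatment cannot be told apart within the female KO label. Genotype is used below as the label gives it. The cultures expressed markers of ciliated, basal and secretory cells (*Foxj1* 44.8 to 97.5 CPM, *Krt5* 628 to 5868 CPM), while the club cell protein *Scgb1a1* did not exceed 3.75 CPM, and *Cdh5* (endothelium) and *Cd3e* (T cells) were at or near 0. The summed level of 7 fibroblast markers reached 533 CPM in female WT naive replicate 2 and 580 CPM in female WT HDM replicate 2, against at most 156 CPM in every other library.

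Levels of the 10 genes differed widely. Per kilobase of exon, *Nr1d1* was the highest member, with a median of 51.4 CPM per kb over the 16 libraries, followed by *Nr1d2* at 20.6, *Tef* at 19.8 and *Dbp* at 12.9 CPM per kb. *Per1* and *Per2* lay at 6.66 and 6.19, *Hlf* at 4.09, *Ciart* at 3.14, *Per3* at 2.89 and *Bhlhe41* at 1.43 CPM per kb. The ranges over the libraries overlapped for every pair of neighbours in this order, as for *Nr1d1* (14.3 to 69.8) and *Nr1d2* (14.2 to 27.5). *Bhlhe41*, *Dbp* and *Nr1d1* varied most between libraries, with the highest library 5.3, 4.98 and 4.87 times the lowest, and *Nr1d2* varied least, at 1.94 times.

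**Figure D1:**
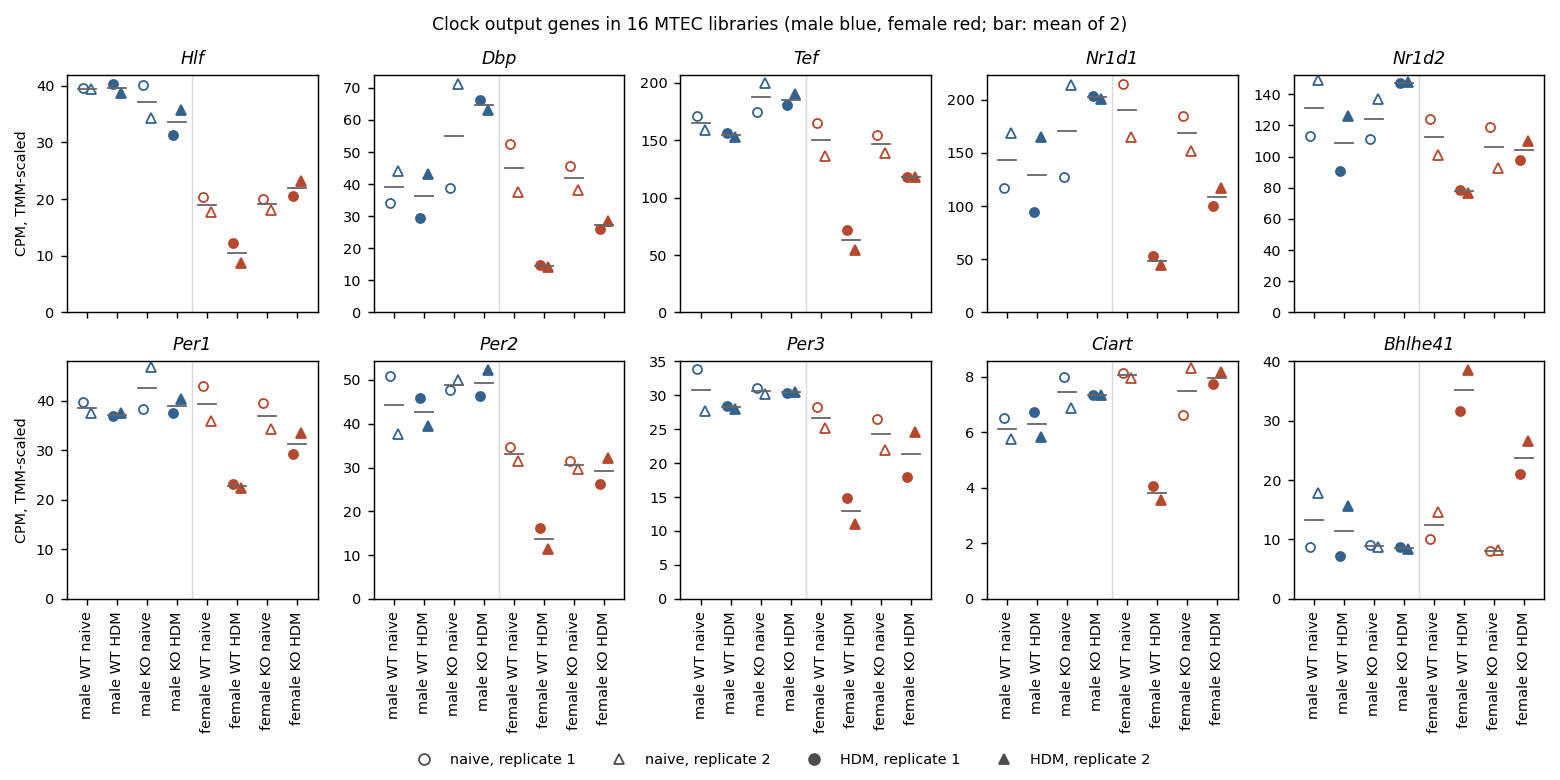
Level of each clock output gene in CPM after TMM scaling (y axis, from 0) in the 8 groups (x axis), with circles for replicate 1, triangles for replicate 2, open symbols for naive, filled symbols for HDM and a bar at the mean of the 2. *Hlf* in males, 31.4 to 40.4 CPM, lies above every female library, 8.71 to 23.2 CPM. In the female WT HDM libraries 8 of the other genes are lowest and *Bhlhe41* is highest. The share of all genes with such an order was not counted.

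*Hlf* encodes hepatic leukemia factor, a PAR bZIP transcription factor, and lies on chromosome 11 from 90336536 to 90390895, minus strand. Male WT naive libraries held 39.6 and 39.4 CPM, and female WT naive libraries held 20.3 and 17.7 CPM. Male KO naive libraries held 40.1 and 34.3 CPM, against 20.1 and 18.1 CPM in female KO naive libraries. Every naive male library was thus above every naive female library. The log2 difference, male minus female, was 1.06 with a standard error (SE) of 0.15 in WT and 0.96 (SE 0.14) in KO, which is 2.08-fold and 1.94-fold. These naive libraries chose the gene, so no test is given. In the HDM libraries, which the choice did not use, the order was the same: males held 40.4 and 38.7 CPM (WT) and 31.4 and 35.7 CPM (KO), and females held 12.3 and 8.71 CPM (WT) and 20.6 and 23.2 CPM (KO). There the difference was 3.75-fold in WT (log2 1.91, SE 0.15, edgeR adjusted p = 3.58e-06). In KO it was 1.53-fold (log2 0.61, SE 0.14, edgeR adjusted p = 0.00987). Tracheas were pooled across conditions, so a naive and an HDM culture may come from the same pool. A pool difference behind the choice of *Hlf* could then recur under HDM. The HDM values are therefore not shown to be independent of that choice. The KO call was lost on leaving out male KO HDM replicate 2 or female KO HDM replicate 1. The share of all 15993 tested genes called for sex was 41.6% in HDM-treated WT and 25.3% in HDM-treated KO cultures.

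No other member was called by edgeR for the naive difference in either genotype taken alone, where few genes were called at all. Of the other 9 genes, 0 were called for sex in naive WT and 0 in naive KO cultures by edgeR, where 0.1% and 0.188% of all genes were called. At an unadjusted p under 0.05, 2 of 9 passed in WT, *Per2* with males higher and *Ciart* with females higher. In KO 2 of 9 passed, *Per2* and *Tef*, both with males higher. Of the 15993 genes tested, 1969 and 1585 passed. DESeq2 called 0 and 1 of the 9 (*Per2* in KO), against 193 and 210 genes. Averaged over both genotypes, 1 of 9 was called, against 2.37% of all genes, and 3 of 9 (*Per2*, *Per3* and *Tef*) passed an unadjusted p under 0.05, against 2994 genes. The called gene was *Per2*, a repressor of CLOCK and BMAL1 (chromosome 1, 91415982 to 91459324, minus strand). Naive male libraries held between 37.7 and 50.8 CPM *Per2* (median 48.8, n = 4) and naive female libraries between 29.7 and 34.8 CPM (median 31.6, n = 4), without overlap. The averaged difference was log2 0.54 (SE 0.12, adjusted p = 0.041). It rested on the full set of libraries: the call was lost on leaving out any 1 of the 8 naive libraries except male WT naive replicate 2, when the naive libraries alone were fitted, and with replicate number as a block. Of the other 9 members, 1 (*Per2*) had naive male and female libraries without overlap, as was the case for 11.6% of all genes. *Hlf* is not counted here because these libraries chose it.

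The PAR bZIP relatives of *Hlf* overlapped between the sexes when naive. *Dbp*, the D-box binding protein (chromosome 7, 45705088 to 45710203, plus strand), ranged from 34.1 to 71.3 CPM in naive males and from 37.6 to 52.4 CPM in naive females. *Tef*, thyrotroph embryonic factor (chromosome 15, 81802421 to 81826863, plus strand), ranged from 159 to 200 CPM in naive males and from 136 to 165 CPM in naive females. Their averaged log2 differences were 0.10 (SE 0.19) for *Dbp* and 0.24 (SE 0.09) for *Tef*, and neither passed the test. *Ciart* and *Nr1d1* had averaged differences on the female side, -0.20 (SE 0.11) and -0.19 (SE 0.20), also without passing. The estimate of *Hlf* in the same average was 1.01 (SE 0.10). It comes from the libraries that chose *Hlf*, so its larger size is not a result.

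**Figure D2:**
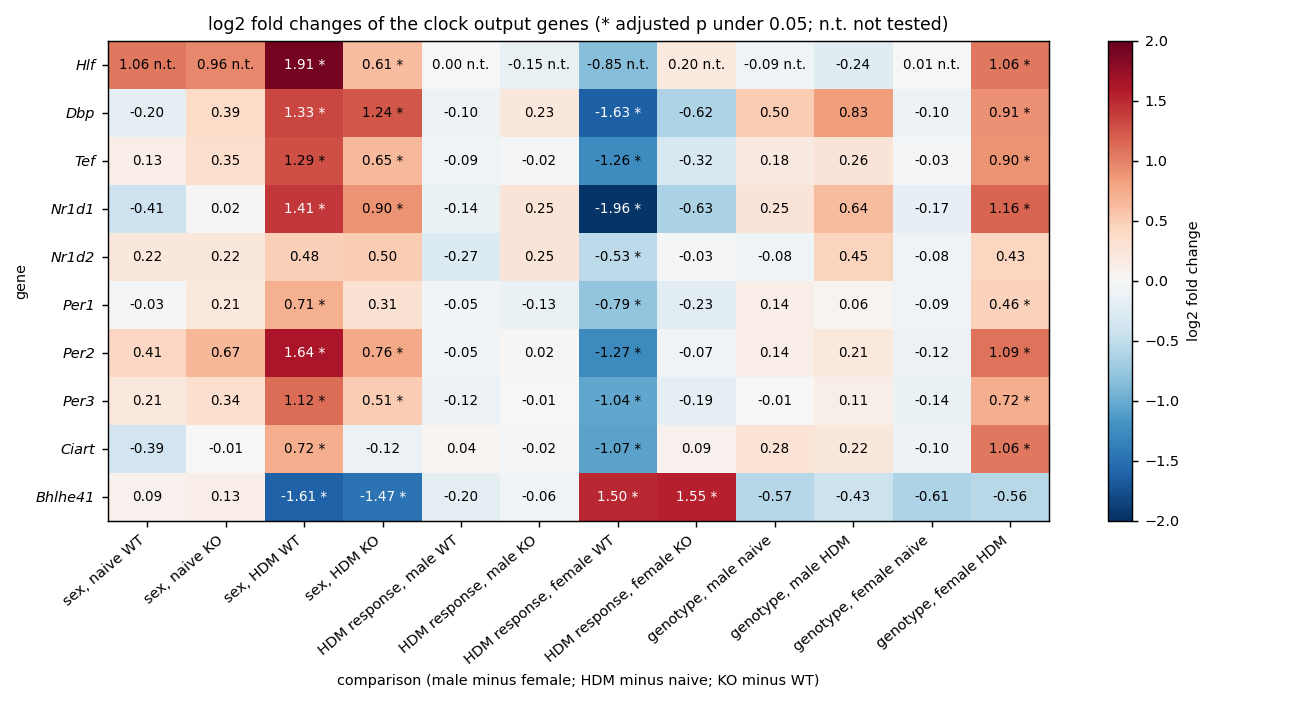
log2 fold change of each clock output gene (rows) in 12 comparisons (columns), red for positive and blue for negative, with an asterisk at an adjusted p under 0.05 and n.t. where *Hlf* was not tested. The calls stand in the female WT response to HDM (-1.96 to 1.50), in the female KO response for *Bhlhe41* (1.55), in the sex differences under HDM and in the female genotype difference under HDM, and the male HDM columns and all naive genotype columns hold none.

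HDM treatment of female WT cultures moved every one of the 9 testable members. *Nr1d1*, *Dbp*, *Per2*, *Tef*, *Ciart*, *Per3*, *Per1* and *Nr1d2* fell and *Bhlhe41* rose, each at an adjusted p under 0.05. The background was broad: 43.1% of all genes were called, 22.4% lower and 20.6% higher. The median log2 change of the 9 genes was -1.07, against -0.02 over all genes tested. Cell type markers moved in the same libraries. The 5 club and secretory markers all fell, from summed levels of 13132 to 17359 CPM to 3764 to 4654 CPM. Most of that sum was *Cyp2f2* (12611 to 16711 CPM naive, 3754 to 4645 CPM under HDM). The rest fell by larger factors, in group means: *Scgb3a1* from 288 to 4.68 CPM, *Scgb3a2* from 210 to 3.28, *Bpifa1* from 83.2 to 1.32 and *Scgb1a1* from 2.97 to 0.0861. The 3 goblet markers all fell, from 61 to 90.4 CPM to 2.18 to 2.21 CPM, and 3 of 5 basal markers fell. The 4 general epithelial markers all rose, from 3414 to 3859 CPM to 7256 to 7469 CPM. In bulk RNA, fewer cells of a type and less RNA per cell cannot be told apart, and the part of these shifts in the clock genes was not tested.

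The REV-ERB receptors sit in the limb that represses *Arntl*. *Nr1d1* (REV-ERBα, chromosome 11, 98767932 to 98775333, minus strand) held 215 and 165 CPM in female WT naive libraries and 53.2 and 44.1 CPM in female WT HDM libraries. The groups were far apart, and the fall was 3.89-fold (log2 -1.96, SE 0.30, adjusted p = 0.000343), the largest among the members. Its relative *Nr1d2* (REV-ERBβ, chromosome 14, 18204054 to 18239127, minus strand) went from 124 and 101 CPM to 78.6 and 76.6 CPM. This smaller fall (log2 -0.53, SE 0.19, adjusted p = 0.0365) was no longer called without female WT naive replicate 1 or without either female WT HDM library.

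Among the PAR bZIP factors, *Dbp* went from 52.4 and 37.6 CPM to 14.7 and 14.3 CPM, a 3.09-fold fall (log2 -1.63, SE 0.28, adjusted p = 0.00072). *Tef* went from 165 and 136 CPM to 71.6 and 54.6 CPM (log2 -1.26, SE 0.13, adjusted p = 1.94e-05), which made it the member with the smallest p. *Hlf* lay at 20.3 and 17.7 CPM when naive and at 12.3 and 8.71 CPM under HDM. Its log2 change was -0.85 (SE 0.15), given without a test because its naive female libraries were used to pick it, and it was -1.13 without female WT HDM replicate 1 and -0.63 without replicate 2. All 3 PAR bZIP genes were therefore lowest in the female WT HDM libraries. The share of all genes that were lowest in these libraries was not counted.

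The period genes, whose proteins repress CLOCK and BMAL1, fell to differing extents. *Per2* went from 34.8 and 31.6 CPM to 16.1 and 11.3 CPM (log2 -1.27, SE 0.18, adjusted p = 0.000189). *Per3* (chromosome 4, 151003652 to 151044665, minus strand), the member with the 2 D-box matches shown above, went from 28.2 and 25.2 CPM to 14.8 and 11 CPM (log2 -1.04, SE 0.17, adjusted p = 0.000585). *Per1* (chromosome 11, 69095217 to 69109960, plus strand), which is also induced by glucocorticoids and cyclic AMP, went from 42.9 and 35.8 CPM to 23.1 and 22.4 CPM (log2 -0.79, SE 0.12, adjusted p = 0.000366). *Ciart* (chromosome 3, 95878503 to 95882251, minus strand), a further repressor of CLOCK and BMAL1 and the member with 3 E-box matches, went from 8.14 and 7.96 CPM to 4.08 and 3.55 CPM (log2 -1.07, SE 0.16, adjusted p = 0.000257). In each of these 4 genes both HDM libraries lay below both naive libraries. The share of all genes with this order was not counted, and 22.4% of all genes were called lower in this comparison.

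*Bhlhe41* (DEC2, chromosome 6, 145858243 to 145865558, minus strand) encodes an E-box binding repressor and moved in the other direction. It held 10.1 and 14.7 CPM in female WT naive libraries and 31.7 and 38.5 CPM in female WT HDM libraries, a 2.82-fold rise (log2 1.50, SE 0.35, adjusted p = 0.00542). The call was lost without female WT naive replicate 1. The calls of *Nr1d1*, *Dbp*, *Tef*, *Per1*, *Per2*, *Per3* and *Ciart* held when any 1 of the 4 female WT libraries was left out. Each such fit kept at least 1 of the 2 libraries with the most fibroblast marker RNA. The part of that RNA in the result was not tested. The paralogue *Bhlhe40* (DEC1) had a log2 change of -0.04 (SE 0.11) and was not called.

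In female KO cultures, *Bhlhe41* was the member called for HDM (1 of 9, against 10.4% of all genes). It went from 8.01 and 8.27 CPM to 21.1 and 26.5 CPM, a 2.92-fold rise (log2 1.55, SE 0.36, adjusted p = 0.0199), and was not called without female KO naive replicate 1 or 2 or without female KO HDM replicate 2. The 8 other testable genes had log2 changes between -0.63 (*Nr1d1*) and 0.09 (*Ciart*). *Dbp* went from 45.7 and 38.2 CPM to 26.1 and 28.6 CPM. *Nr1d1* went from 185 and 152 CPM to 99.7 and 117 CPM, and *Tef* from 155 and 139 CPM to 118 and 118 CPM. These 3 genes had unadjusted p-values of 0.0401, 0.0485 and 0.025 in the edgeR fit and were called in addition when only the 4 libraries compared were fitted. *Per2* went from 31.6 and 29.7 CPM to 26.2 and 32.2 CPM, and *Ciart* from 6.64 and 8.33 CPM to 7.75 and 8.16 CPM. *Hlf* had 20.1 and 18.1 CPM when naive and 20.6 and 23.2 CPM under HDM. Club and secretory markers in these cultures summed to 13169 to 15907 CPM when naive and 7228 to 7877 CPM under HDM. Most of the sum was again *Cyp2f2* (group means 14144 and 7458 CPM).

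The difference between the 2 female responses was itself fitted, as a comparison added after the values were seen. In it, with *Hlf* left out because its naive libraries enter, 4 of 9 members were called, against 11.2% of all genes: *Per2* (1.21 higher in KO on the log2 scale, SE 0.25, adjusted p = 0.0127), *Ciart* (1.16, SE 0.22, adjusted p = 0.0087), *Tef* (0.94, SE 0.18, adjusted p = 0.00898) and *Per3* (0.86, SE 0.24, adjusted p = 0.0429). *Nr1d1* (1.33, SE 0.41) and *Dbp* (1.01, SE 0.38) had estimates of like size with wider errors and did not pass. For *Bhlhe41* the difference was 0.05 (SE 0.50), and for *Hlf*, as a description, 1.05 (SE 0.21). Without female WT naive replicate 1, female WT HDM replicate 2, female KO naive replicate 2 or female KO HDM replicate 2, the count was 2 of 9, with *Per2* and *Per3* lost each time. Those fits called fewer genes over the whole table as well. *Per3* was also lost without either of the other naive libraries and when only the libraries compared were fitted.

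**Figure D3:**
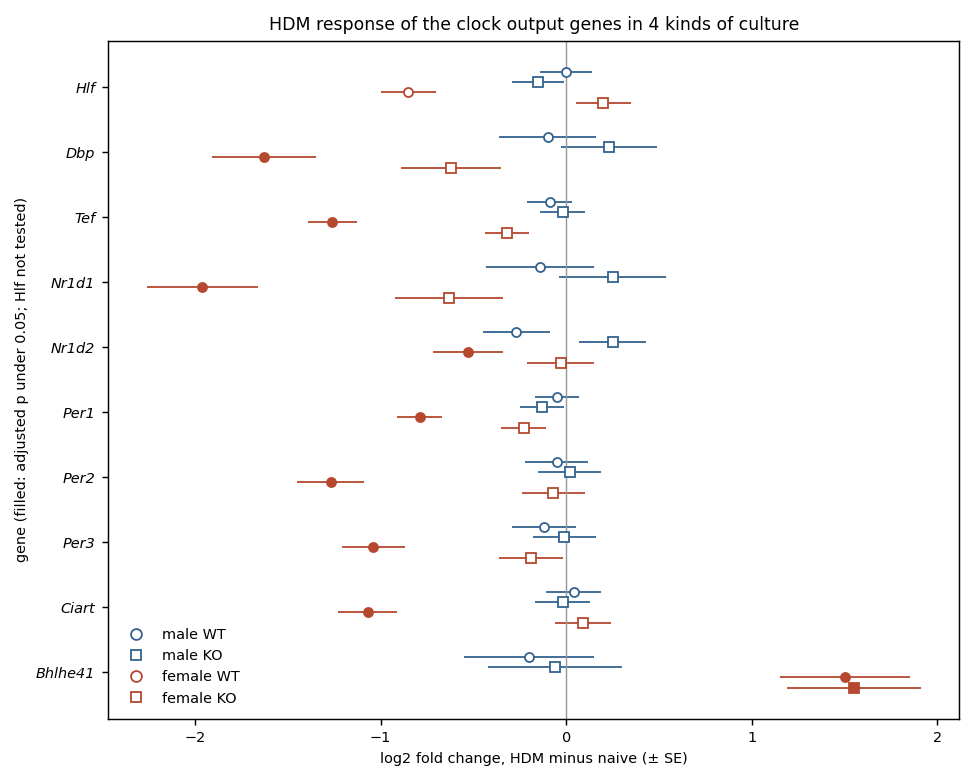
log2 fold change, HDM minus naive, with its SE (x axis) for each clock output gene (y axis) in male WT, male KO, female WT and female KO cultures, filled where the adjusted p was under 0.05. In female WT cultures 8 genes other than *Hlf* lie between -1.96 and -0.53 and *Bhlhe41* lies at 1.50, while the male estimates lie between -0.27 and 0.25.

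Male cultures had no called member for HDM, in WT or in KO, and 0% of all genes were called in either. At an unadjusted p under 0.05, 0 of 9 members passed in each genotype, and DESeq2 called 0 of 9 in each. Over all genes, 665 in WT and 857 in KO passed an unadjusted p under 0.05, and DESeq2 called 1 in each. The members' log2 changes lay between -0.27 (*Nr1d2*) and 0.04 (*Ciart*) in male WT cultures. In male KO cultures they lay between -0.13 (*Per1*) and 0.25 (*Nr1d1* and *Nr1d2*). Some estimates depended on single libraries. With 1 library left out, male KO estimates ran from -0.14 to 0.73 for *Dbp* and from -0.08 to 0.67 for *Nr1d1*. Male WT estimates ran from -0.87 to 0.41 for *Bhlhe41* and from -0.61 to 0.2 for *Nr1d1*. In male WT cultures, *Bhlhe41* and *Nr1d1*, picked after their values were seen, lay together by replicate number whatever the treatment. This was not so for every member, since *Tef* held 159 to 171 CPM when naive and 153 to 156 CPM under HDM. *Bhlhe41* held 8.65 (naive) and 7.28 (HDM) CPM in replicates 1 and 17.9 and 15.7 CPM in replicates 2. *Nr1d1* held 117 and 94 CPM in replicates 1 and 169 and 165 CPM in replicates 2.

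The HDM response differed between the sexes in WT cultures for 8 of 9 testable members, against 24.2% of all genes, and *Nr1d2* was the exception. The largest differences, male response minus female response, were in *Nr1d1* (log2 1.82, SE 0.41, adjusted p = 0.00838), *Bhlhe41* (-1.70, SE 0.50, adjusted p = 0.0289), *Dbp* (1.53, SE 0.38, adjusted p = 0.014) and *Per2* (1.22, SE 0.25, adjusted p = 0.00439). Without female WT naive replicate 1 or female WT HDM replicate 2 the count was 5 of 9, with *Dbp*, *Per3* and *Bhlhe41* lost each time. The number of genes called over the whole table fell in both fits. *Bhlhe41* was also lost without male WT naive replicate 2 (with *Per3*), without male WT HDM replicate 1 and when only the libraries compared were fitted. In KO cultures 0 of 9 were called for this difference, against 3.56% of all genes. There 2 of 9 passed an unadjusted p under 0.05, against 2972 of the 15993 genes tested, and DESeq2 called 1 of 9, against 1161 genes.

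Under HDM, the sexes therefore stood apart in most members. In HDM-treated WT cultures 9 of 10 genes were called (8 of 9 without *Hlf*), all but *Nr1d2*, against 41.6% of all genes. Of these, *Bhlhe41* was lower in males (log2 -1.61, SE 0.36, adjusted p = 0.00384) and the other 8 were higher, from *Per1* (0.71, SE 0.12) and *Ciart* (0.72, SE 0.16) to *Per2* (1.64, SE 0.18) and *Hlf* (1.91). In HDM-treated KO cultures 7 of 10 were called (6 of 9 without *Hlf*), against 25.3% of all genes. *Ciart* (-0.12, SE 0.15), *Nr1d2* (0.50, SE 0.18) and *Per1* (0.31, SE 0.12) were not. *Dbp* had the largest KO difference on the male side (log2 1.24, SE 0.27, adjusted p = 0.00635), with 66.2 and 63 CPM in males and 26.1 and 28.6 CPM in females. The KO count was 4 without male KO HDM replicate 1, 2 without male KO HDM replicate 2 and 2 without female KO HDM replicate 1. Calls over all genes also fell in each of these fits. In the full comparisons of HDM-treated cultures, 5 of 5 club and secretory and 3 of 3 goblet markers were higher in males in WT. In KO, 4 of 5 and 3 of 3 were higher, and the part of these markers in the result was not tested. Over the 4 male and 4 female HDM libraries, 7 members did not overlap, against 27.6% of all genes. Males were higher in *Hlf*, *Dbp*, *Tef*, *Per1*, *Per2* and *Per3*, and females were higher in *Bhlhe41*. The count includes *Hlf*, whose HDM values are not shown to be independent of its choice.

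Genotype separated the clock genes in female HDM-treated cultures. There 8 of 10 members were called, all with higher levels in KO, against 29.2% of all genes. *Nr1d1* (log2 1.16, SE 0.30, adjusted p = 0.0135), *Per2* (1.09, SE 0.18, adjusted p = 0.00138), *Hlf* (1.06, SE 0.15, adjusted p = 0.000673) and *Ciart* (1.06, SE 0.16, adjusted p = 0.000837) led. *Nr1d2* (0.43, SE 0.19) and *Bhlhe41* (-0.56, SE 0.35) were not called. The 2 KO libraries here held 55.3% and 64.8% of the WT mean of *Lman1*. Their club and secretory markers summed to 7228 to 7877 CPM against 3764 to 4654 CPM in WT. Basal markers summed to 8483 to 9944 CPM in KO and 2044 to 3979 CPM in WT. General epithelial markers summed to 5213 to 5651 CPM in KO and 7256 to 7469 CPM in WT. The part of these markers in the result was not tested. The count was 4 of 10 without female WT HDM replicate 2 or without female KO HDM replicate 2, with *Dbp*, *Nr1d1*, *Per1* and *Per3* lost. Fewer genes of the whole table were called in those fits too. The female genotype comparisons with HDM libraries, the female WT response and the sex difference in HDM-treated WT all share the 2 female WT HDM libraries. They are not separate evidence.

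In female naive, male naive and male HDM cultures 0 members (of 9, 9 and 10, *Hlf* being tested in HDM libraries alone) were called for genotype by edgeR, where 0%, 0% and 0% of all genes were called. At an unadjusted p under 0.05, 0, 0 and 3 members passed, against 203, 867 and 2897 of the 15993 genes tested. DESeq2 called 0, 0 and 1 members, against 1, 0 and 508 genes. *Dbp* in male HDM libraries held 29.5 and 43.3 CPM in WT and 66.2 and 63 CPM in KO. Its log2 difference of 0.83 (SE 0.26) was not called by edgeR (adjusted p = 0.182).

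**Figure D4:**
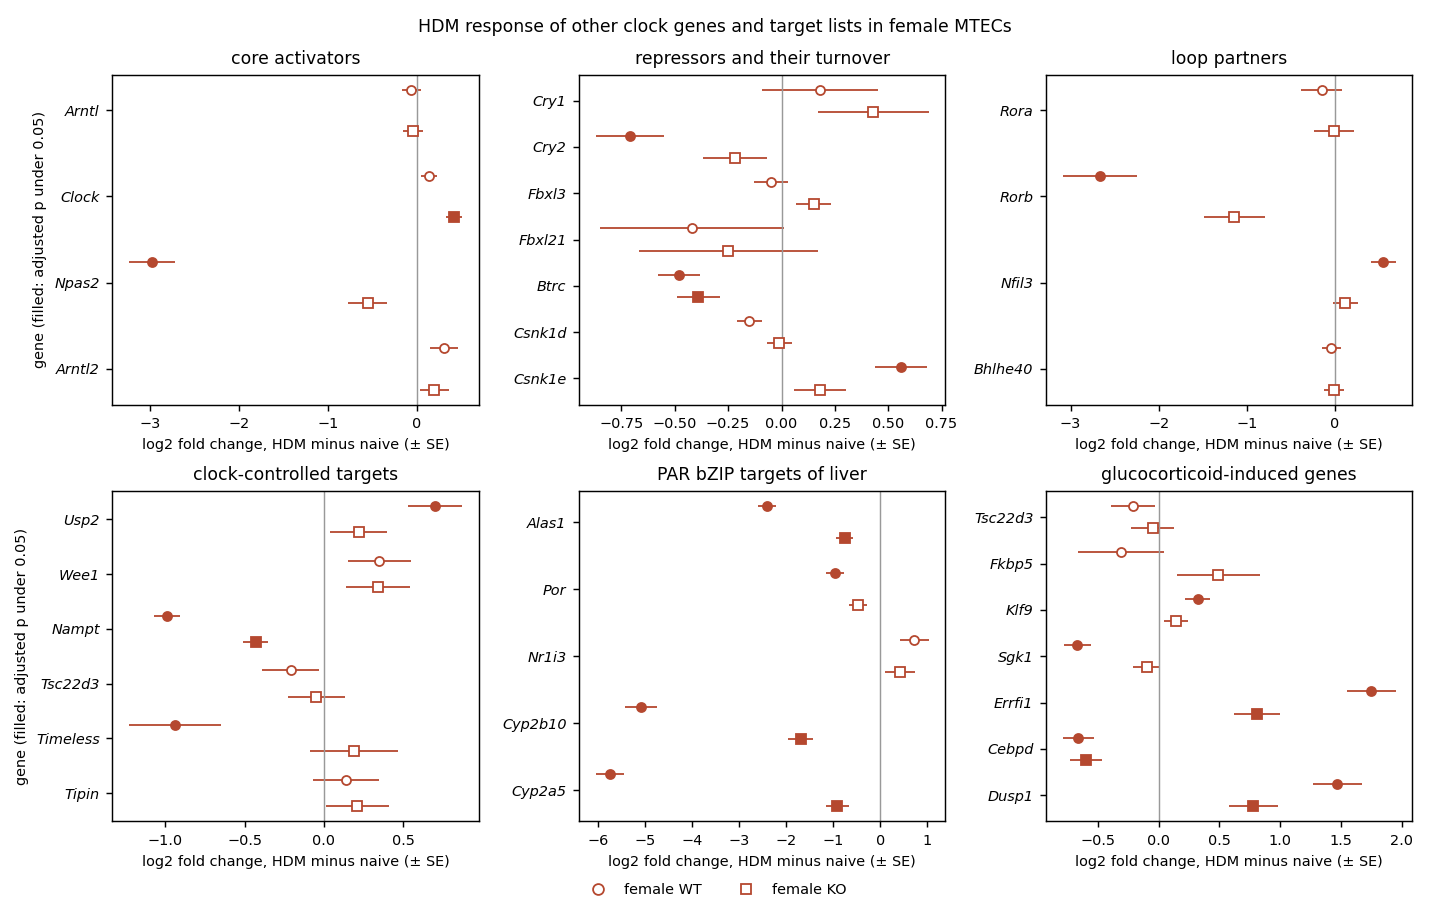
log2 fold change, HDM minus naive, with its SE (x axes) in female WT (circles) and female KO cultures (squares) for the genes of 6 lists (panels, genes on the y axes), filled where the adjusted p was under 0.05. *Arntl* and *Clock* lie near 0 in WT, *Npas2* lies at -2.98, and 4 of 5 PAR bZIP targets fell.

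The rest of the clock was described in female WT cultures by lists of genes, where 43.1% of all genes were called, so counts near that share say nothing particular about a list. Of 4 core activators 1 fell and none rose (median log2 change 0.04). *Arntl* (BMAL1) ranged from 14.1 to 19.8 CPM over all 16 libraries and changed by -0.06 (SE 0.11), and *Clock* by 0.14 (SE 0.09). *Npas2*, which can take the place of CLOCK, held 11.8 and 12 CPM when naive and 1.5 and 1.52 CPM under HDM (log2 -2.98, SE 0.26, adjusted p = 7.57e-06), a larger fall than that of any output gene. In female KO cultures *Npas2* lay at 11.4 and 12.3 CPM when naive and at 7.95 and 8.27 CPM under HDM (log2 -0.55, SE 0.22, not called). Of 7 repressors and genes of their turnover, 2 fell and 1 rose (median -0.15): the repressor *Cry2* (-0.71, SE 0.16) and the ubiquitin ligase subunit *Btrc* (-0.48, SE 0.10) fell, and the kinase *Csnk1e* rose (0.56, SE 0.12). Of 4 loop partners, *Rorb* fell (-2.67, SE 0.42, from 2.87 and 1.98 CPM to 0.458 and 0.284 CPM), and *Nfil3*, a repressor that competes for D-boxes, rose (0.55, SE 0.14).

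Genes downstream were examined in 3 lists, against the same 43.1% of all genes called in female WT and 10.4% in female KO cultures. Of 5 genes that PAR bZIP factors control in liver, 4 fell and none rose in female WT cultures, with a median log2 change of -2.40. *Cyp2a5* went from 713 and 567 CPM to 10.4 and 13.5 CPM (log2 -5.74, SE 0.30, adjusted p = 2.19e-07), and *Cyp2b10* from 35.3 and 35.5 CPM to 1.08 and 0.995 CPM (log2 -5.08, SE 0.34). Both are cytochrome P450 genes with near-identical relatives, so the assignment of their reads is uncertain, and secretory markers fell in the same libraries. *Alas1*, the first enzyme of heme synthesis, changed by -2.40 (SE 0.19), and *Por*, the reductase that supplies cytochromes P450, by -0.97 (SE 0.19). In female KO cultures 3 of 5 were called, all lower, with a median of -0.75. Of 6 clock-controlled targets, *Nampt* (-0.99, SE 0.08) and *Timeless* (-0.94, SE 0.29) fell and *Usp2* (0.70, SE 0.17) rose in female WT cultures. Of 8 glucocorticoid-induced genes, 7 were tested, and 3 rose and 2 fell: *Errfi1* (1.75, SE 0.20) and *Dusp1* (1.47, SE 0.20) rose and *Sgk1* (-0.67, SE 0.11) and *Cebpd* (-0.66, SE 0.13) fell. In both male genotypes 0 genes of these 6 lists were called for HDM, as in the whole table.

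In naive cultures, 1 of 6 clock-controlled targets was called for sex in the average of both genotypes, against 2.37% of all genes. It was *Nampt*, an enzyme of NAD synthesis, which was higher in males (log2 0.28, SE 0.06, edgeR adjusted p = 0.0297). Apart from the members, no gene of the other lists was called there.

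The genes most like *Hlf* and *Dbp* over the 16 libraries were not the same. By Pearson correlation of log2 CPM, the 5 genes most like *Hlf* were *Rel* (r = 0.959), *Lancl3* (0.958), *Chst15* (0.957), *Cpd* (0.953) and *Gfpt1* (0.952), and the closest member was *Per2* (0.927, rank 25). The 5 most like *Dbp* were *Sik1* (0.979), *Oplah*, *Por* and *Fahd1* (0.978 each) and *Rundc1* (0.977), and the closest member was *Nr1d1* (0.966, rank 20). *Hlf* and *Dbp* themselves correlated at 0.656, and at 0.193 over the 14 libraries left without the 2 female WT HDM libraries. *Hlf* with *Per2* remained at 0.839 and *Dbp* with *Nr1d1* at 0.917 over those 14 libraries. The points share cultures, sex and treatment groups, so these values describe the pattern and carry no test.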

How the data were processed

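RNA-seq libraries of 16 MTEC cultures were analysed from 1 table of raw counts per Ensembl gene that the authors deposited, whole numbers without normalization. The submitters' processing notes name Trimmomatic version 0.36, STAR version 2.5.2b, featureCounts of Subread version 1.5.2, DESeq2 and GRCm38. The strand setting and annotation release are not given in the sources used here. Exons of *Dbp*, *Tef*, *Nr1d1* and *Bhlhe41* overlap genes on the opposite strand (*Sphk2*, *Gm17597*, *Thra* and *Gm43909*) over 18.0%, 2.45%, 8.55% and 19.0% of their exon length, and reads of such partners could be counted in either gene if strand was not used.

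Identifiers were matched to GENCODE M21 on GRCm38 (49056 of 49315). Counts were scaled with TMM factors (0.967 to 1.02) and filtered with filterByExpr, which left 15993 genes. edgeR version 4.0.16 in R version 4.3.3 fitted 1 mean per group (8 groups) by quasi-likelihood, with two-sided tests and Benjamini-Hochberg adjustment over all tested genes in each of 16 comparisons. An adjusted p under 0.05 counted as a call. CPM are counts scaled by library size and TMM factor, and CPM per kb divides them by exon length. Where naive libraries entered a comparison, *Hlf* was left out of counts of calls.

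The members and lists were chosen with earlier results of these data known. Named genes were the members, at most 4 genes of each list by smallest p, the 5 most correlated with *Hlf* and with *Dbp*, and *Lman1*; *Bhlhe40*, *Xist* and the cell markers were added as checks. 1 gene of the loop partner list is not reported here. Alternatives were DESeq2 version 1.42.0, its size factors in edgeR, no filter, only the compared libraries, a replicate block, crossed replicates and leaving out each library. The steps were tested on simulated data. Tables and plots used Python version 3.11.15 with pandas version 2.3.3 and matplotlib version 3.10.9.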

Additional observations from a re-analysis of the deposited data

Results flagged for a closer look

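Groups of 2 libraries are too small for a check of single libraries, so these results are flagged because an effect differed between groups by an interaction term in the edgeR fit. The first set is the HDM response in WT cultures, male minus female, on the log2 scale. *Nr1d1* differed by 1.82, *Dbp* by 1.53, *Per2* by 1.22, *Tef* by 1.16, *Ciart* by 1.11, *Per3* by 0.92 and *Per1* by 0.74, all with the lower response in females, and *Bhlhe41* by -1.70, with the higher response in females.

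The second set is the HDM response in female cultures, KO minus WT. *Per2* differed by 1.21, *Ciart* by 1.16, *Tef* by 0.94 and *Per3* by 0.86. Both sets share the female WT libraries, and the KO libraries of the second set differ in *Lman1* between naive (12.8 and 12.8 CPM) and HDM (66.6 and 78.1 CPM). The part of that difference in the result was not tested.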

How the results depend on the processing

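Counts of called members were 9 of 9 for the female WT response to HDM and 0 of 9 for both male responses under every setting other than leaving out a library. Without the filter on low counts, the naive sex difference called 2 members in WT, 3 in KO and 3 for their average. Over all genes it then called 644, 859 and 1606, against 16, 30 and 379 with the filter. That setting also called 4 for the female KO response and 1, 1 and 3 for genotype in female naive, male naive and male HDM cultures. It called 3 for the sex difference of the response in KO and 8 for the genotype difference of the female response. Among all genes it called 2717, 135, 98, 1896, 1977 and 3029 in these comparisons, against 1664, 0, 0, 0, 569 and 1798 with the filter. Only the compared libraries gave 0 for the averaged naive sex difference, 4 for the female KO response and 1 for the sex difference of the response in KO. The counts over all genes were 58, 2804 and 793, against 379, 1664 and 569 in the main fit. DESeq2 gave 1 for naive KO sex and 1 for genotype in male HDM cultures. It gave 1 for the sex difference of the response in KO and 7 for the genotype difference of the female response. Its counts over all genes were 210, 508, 1161 and 2331, against 30, 0, 569 and 1798 by edgeR. The cause of these shifts was not tested.

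Leaving out 1 library at a time gave 0 to 1 members for the averaged naive sex difference and for the female KO response, 2 to 5 for sex in HDM-treated KO, 4 to 7 for genotype in female HDM cultures, 5 to 8 and 0 to 1 for the sex difference of the response in WT and KO, and 2 to 4 for the genotype difference of the female response. The female WT response kept 7 to 9 of 9. In most of these fits, calls over all genes fell as well. A group left with 1 library was assumed to vary like the others.

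Replicate numbers were not shown to pair the cultures: with 2 numbers per group, deviations of same-numbered libraries correlated between -0.164 and 0.483. With the number as a replicate block, the averaged naive sex difference called 0 members (1 without it), sex in HDM-treated KO called 6 (7 without it), and other counts did not change. Crossed pairing, added after seeing the data where the correlation lay below -0.1, called 0 for naive KO sex and 0 for the male KO response. Without TMM factors, CPM moved by at most 3.41%, and 6 instead of 7 members had HDM libraries without overlap between the sexes.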

Other observations

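Male KO naive replicate 2 lay closer to the male KO HDM libraries than to male KO naive replicate 1 in several genes. *Lman1* held 14.2 CPM in replicate 1 and 63.4 CPM in replicate 2, against 65 and 66 CPM in the male KO HDM libraries. *Dbp* held 38.8 and 71.3 CPM against 66.2 and 63 CPM, *Nr1d1* 127 and 214 CPM against 203 and 201 CPM, and *Por* 2020 and 3182 CPM against 3202 and 3223 CPM. *Hlf* held 40.1 and 34.3 CPM against 31.4 and 35.7 CPM. These genes were chosen after their values were seen.

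*Foxj1*, a regulator of ciliated cells, followed replicate numbers in male cultures: 97.5 and 46.6 CPM in WT naive, 96.4 and 55.7 CPM in WT HDM and 97.4 and 53.1 CPM in KO naive replicates 1 and 2, and 48.4 and 46.8 CPM in KO HDM libraries.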
